A study of Mus musculus with 6 samples.

Results

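The interferon-stimulated genes described here are 37 mouse genes whose transcription is known to be switched on by interferons, taken by gene symbol from a count table of 24421 genes. All 37 were in the table. The tissue was kidney cortex, with 3 libraries from PT-I-PpoI mice, in which epithelial cells of the proximal tubule express I-PpoI, and 3 libraries from wild type mice. I-PpoI is a homing endonuclease that makes double-strand breaks in DNA where it finds its recognition sequence. The promoter that drives I-PpoI, and the strain, age and sex of the mice, are not given in the sources used here. Whether the numbered samples of a group are separate mice is not stated, and the p-values cover only the spread between them, which may be technical. The RNA is from whole cortex, so that fewer cells of a type and less RNA per cell cannot be told apart.

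Interferons are secreted proteins that bind receptors on the cell surface. Type I and type III interferons act through the kinases JAK1 and TYK2 on a complex that holds STAT2 and IRF9 and binds the interferon-stimulated response element (ISRE). Interferon gamma acts at the gamma-activated site (GAS). Cells make type I interferon when sensors detect viral RNA, or DNA in the cytosol, and broken DNA that reaches the cytosol is one known trigger through cGAS and STING. The products of the induced genes sense RNA, block viral translation, cut RNA, restrict virus release and feed back on the pathway.

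Promoters of 27 of the 37 members were matched by symbol in RefSeq (GRCm38.p6, 250 bases before to 50 bases after each start). The ISRE was searched as GAAA, NN and GAAA in a row, and the GAS as TTCNNNGAA, on both strands. An ISRE match was present in 15 of the 27 members (55.6%), against 3.99% of 27025 genes with a promoter. A GAS match was present in 8 of the 27 (29.6%), against 9.55% of the same 27025 genes. A match describes the letters only and is not evidence of binding. The 250 bases upstream of the start are shown for the 4 members that carry an ISRE match and had the smallest p-values in the comparison with wild type, 5′ to 3′ on the gene's own strand, with the ISRE matches in capitals. They are Ifit3 (chr19:34583279-34583528, plus strand), Bst2 (chr8:71537473-71537722, minus strand), Isg15 (chr4:156200819-156201068, minus strand) and Ifit1 (chr19:34640639-34640888, plus strand).
Ifit3: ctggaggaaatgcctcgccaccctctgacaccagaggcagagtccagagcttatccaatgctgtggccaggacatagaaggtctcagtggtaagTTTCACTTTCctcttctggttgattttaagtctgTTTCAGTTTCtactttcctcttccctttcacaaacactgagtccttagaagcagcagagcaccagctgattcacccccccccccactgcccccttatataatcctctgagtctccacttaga
Bst2: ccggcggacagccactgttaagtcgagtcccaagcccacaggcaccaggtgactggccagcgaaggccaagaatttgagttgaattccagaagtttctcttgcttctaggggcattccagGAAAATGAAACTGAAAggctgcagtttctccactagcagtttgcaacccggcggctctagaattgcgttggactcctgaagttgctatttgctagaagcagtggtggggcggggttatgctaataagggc
Isg15: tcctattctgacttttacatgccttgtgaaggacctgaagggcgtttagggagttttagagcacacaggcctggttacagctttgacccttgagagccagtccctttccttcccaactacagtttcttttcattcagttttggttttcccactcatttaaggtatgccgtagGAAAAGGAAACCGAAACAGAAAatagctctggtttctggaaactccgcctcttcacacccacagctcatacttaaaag
Ifit1: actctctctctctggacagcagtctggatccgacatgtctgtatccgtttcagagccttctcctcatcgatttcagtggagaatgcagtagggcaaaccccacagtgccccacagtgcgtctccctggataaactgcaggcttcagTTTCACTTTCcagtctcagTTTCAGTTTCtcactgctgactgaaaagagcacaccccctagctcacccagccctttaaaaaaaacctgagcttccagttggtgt
The Ifit3 promoter held 2 separate matches, which began 156 and 122 bases before the start, and Ifit1 held 2, which began 104 and 85 bases before it. Both pairs lay on the opposite strand to the gene. The matches of Bst2 and Isg15 overlapped each other and merged into 1 capitalised run in each promoter, made of 2 matches in Bst2 and 3 in Isg15. In Bst2 a GAS match, TTCCAGGAA, overlapped the first ISRE match. Matches were also found in Ddx58, Eif2ak2, Gbp2, Gbp3, Gbp7, Ifih1, Oas1a, Rsad2, Stat2, Trim30a and in the untested Oas3.

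Libraries held 14290109 to 18045335 counted read pairs in PT-I-PpoI kidneys and 13582540 to 20861021 in wild type kidneys. Levels below are CPM, read pairs relative to the library total after TMM adjustment, listed in the order replicate 1, 2 and 3, and means are given ± SD (n = 3 each). The deposited library names come in 2 forms that the labels do not explain: PT-I-PpoI replicates 1 and 2 and wild type replicate 1 have no hyphen, whereas PT-I-PpoI replicate 3 and wild type replicates 2 and 3 have one. The first principal component of all genes tested held 43.1% of the variance. Its scores were -23.1 and -30.15 for PT-I-PpoI replicates 1 and 2 and -0.54 for wild type replicate 1, all without a hyphen. With a hyphen, they were 11.84 for PT-I-PpoI replicate 3 and 20.43 and 21.52 for wild type replicates 2 and 3. The 2 forms did not overlap, but wild type replicate 1 lay nearer to PT-I-PpoI replicate 3 than to the others without a hyphen. Within each form the groups were also apart. Results are therefore also given within each name form.

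Most interferon-stimulated genes had a somewhat higher mean in PT-I-PpoI cortex, but no single member passed the test across all genes. Of the 36 members that passed the low count filter, 30 had a log2 fold change above 0 (83.3%), against 50.1% of all 13977 genes tested. The median log2 fold change of the members was 0.27, with quartiles of 0.12 and 0.38, whereas over all genes tested it was 0.00, with quartiles of -0.12 and 0.14. By the quasi-likelihood test of edgeR, with p-values adjusted by Benjamini-Hochberg over all genes, 0 members were called higher and 0 lower at an adjusted p under 0.05, where 0.136% of all genes were called higher and 0.0% were called lower. At an unadjusted p under 0.05, 10 members were higher (27.8%), against 6.42% of all genes, and 0 were lower, against 5.61%. By DESeq2, too, 0 members were called (0.917% of genes called higher, 0.423% lower), and 6 were higher at an unadjusted p under 0.05, against 3.93% of genes, and 0 were lower, against 4.04%. The 10 by edgeR are Oas2, Ifit3, Bst2, Ifi27, Isg15, Parp14, Irf1, Cmpk2, Ifit2 and Irf9. Their number by edgeR was 5 without PT-I-PpoI replicate 1 (13.9%, against 4.25% of all genes in that fit). It was 2 without PT-I-PpoI replicate 2 (5.56%, against 3.99%) and 3 without wild type replicate 3 (8.33%, against 3.97%), so that with either of these left out the share was nearer to that of all genes. Without PT-I-PpoI replicate 3 it was 12 (33.3%, against 11.3%), and 1 member, Dtx3l, was lower, against 12.7% of all genes. As described above, that replicate is the only PT-I-PpoI library with a hyphen in its name, so group and name form are partly mixed in that fit. The number higher was 9 without wild type replicate 1 and 8 without wild type replicate 2, fits whose share of all genes is not given here. No member had an absolute log2 fold change of 1 or more.

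**Figure D1:**
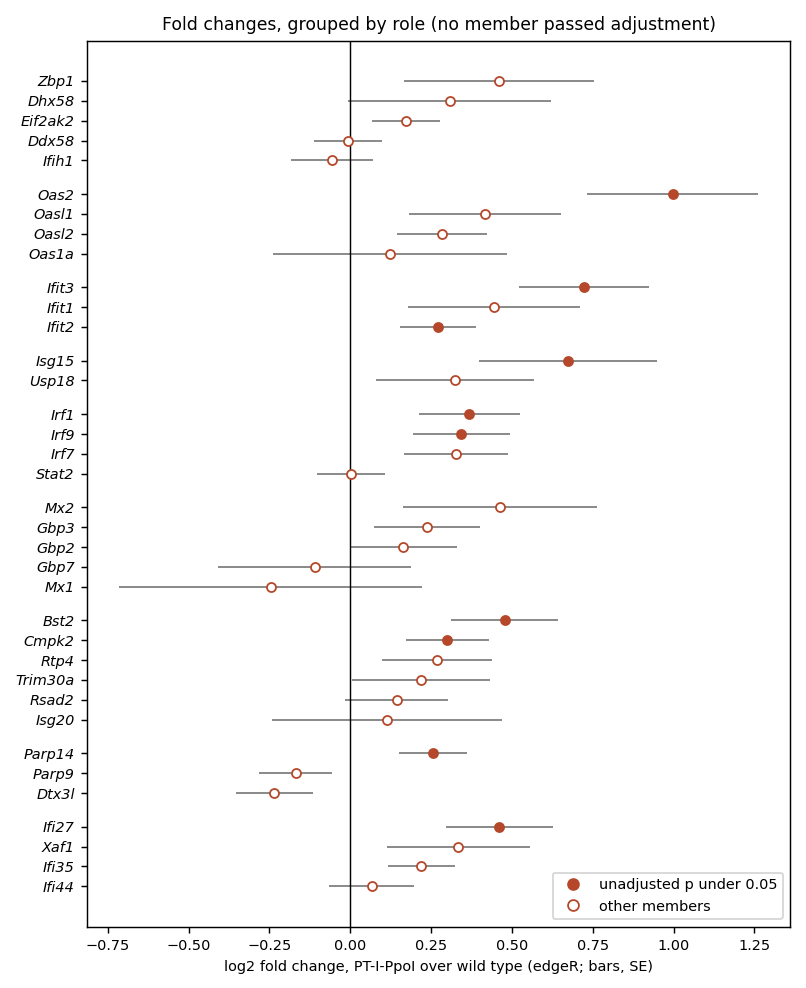
Log2 fold change, PT-I-PpoI over wild type, from edgeR for the 36 tested members, grouped by role, with the bars giving the SE and filled points an unadjusted p under 0.05. Most points lie right of 0; Oas2 is farthest right at 0.998, and the lowest points are Mx1 at -0.25 and Dtx3l at -0.23.

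The 3 libraries of each group did not overlap, with PT-I-PpoI higher, in 11 members (30.6%, against 9.23% of all genes): Eif2ak2, Oas2, Oasl1, Oasl2, Ifit2, Ifit3, Mx2, Cmpk2, Bst2, Parp14 and Ifi35. The reverse held for 1 member, Dtx3l (2.78%, against 7.74%). Summed over the 37 members, the level was 432, 458 and 404 CPM in PT-I-PpoI kidneys, against 390, 378 and 343 CPM in wild type kidneys. All 3 PT-I-PpoI sums lay above all 3 wild type sums.

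**Figure D2:**
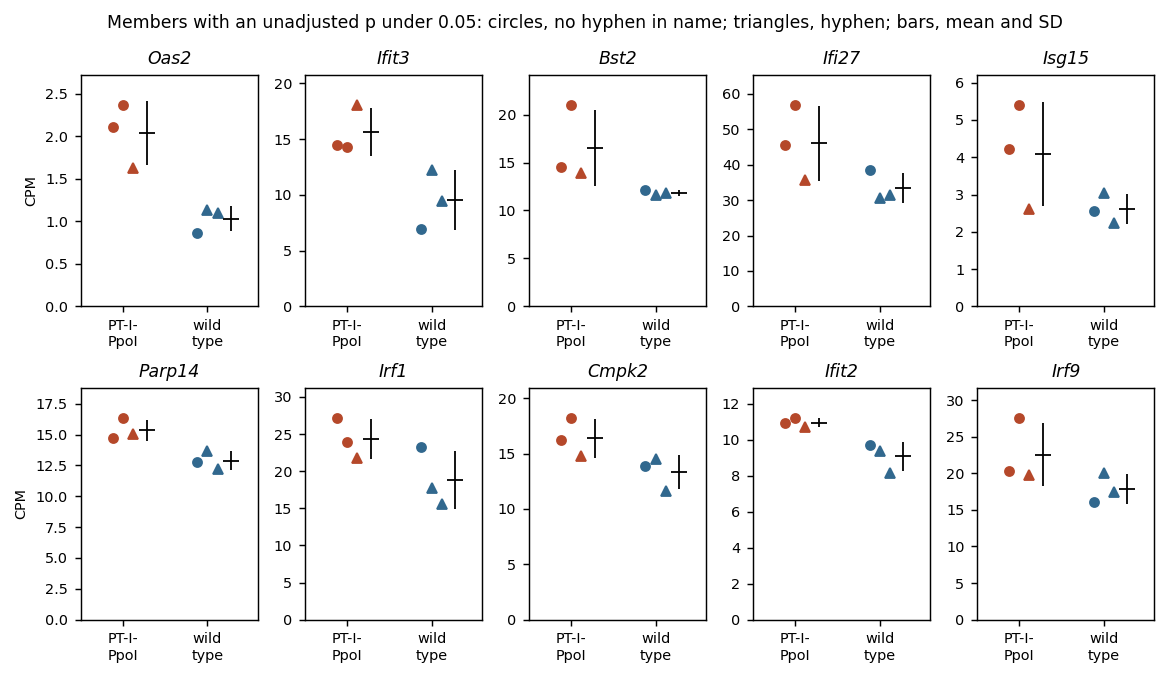
CPM in each of the 6 libraries for the 10 members with an unadjusted p under 0.05, each panel on its own linear axis from 0, with PT-I-PpoI on the left and wild type on the right; circles are libraries without a hyphen in the name, triangles those with one, and bars give the mean and SD. The groups are apart in Oas2, Ifit3, Bst2, Parp14, Cmpk2 and Ifit2 and overlap in Ifi27, Isg15, Irf1 and Irf9.

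The IFIT proteins bind viral RNA that lacks the host's cap marks and block its translation. Ifit3 (chr19:34583529-34588982), whose protein joins IFIT1 in these complexes, stood at 14.5, 14.3 and 18.1 CPM in PT-I-PpoI kidneys, against 6.93, 12.3 and 9.41 CPM in wild type kidneys. Its lowest PT-I-PpoI library was above its highest wild type library. The log2 fold change was 0.72 ± 0.20 (SE), with an edgeR adjusted p of 0.251. With the library name form as a term, Ifit3 was the 1 member called higher (0.90 ± 0.14, edgeR adjusted p 0.0452), in a fit that called 0.351% of all genes higher and 0.107% lower. Within the name forms the log2 difference was 1.04 without a hyphen and 0.74 with one.

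Ifit2 (chr19:34550694-34576534), in the same gene cluster, measured 10.95, 11.2 and 10.7 CPM in PT-I-PpoI kidneys, against 9.68, 9.39 and 8.17 CPM in wild type kidneys. The PT-I-PpoI libraries were close to one another and all above wild type, by 0.27 ± 0.12 on the log2 scale (edgeR adjusted p = 0.413). Ifit1 averaged 4.02 ± 0.73 CPM in PT-I-PpoI kidneys and 2.99 ± 0.98 CPM in wild type kidneys, and the groups overlapped (edgeR adjusted p = 0.514). Reads that map to several places were not counted, so values of Ifit3 and of its close copy Ifit3b are uncertain. Ifit3b, which is outside the module, was at 7.46, 6.84 and 4.32 CPM in PT-I-PpoI kidneys, against 3.42, 4.62 and 2.24 CPM in wild type kidneys (edgeR adjusted p = 0.318).

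The oligoadenylate synthetases make the short RNA messenger that activates RNase L, which degrades RNA. Oas2 (chr5:120730333-120749848) had the largest fold change of the module. It stood at 2.12, 2.37 and 1.63 CPM in PT-I-PpoI kidneys, against 0.867, 1.14 and 1.10 CPM in wild type kidneys. These levels rest on 40, 43 and 23 read pairs in PT-I-PpoI libraries, against 18, 15 and 22 in wild type libraries. The groups did not overlap, and the log2 fold change was 0.998 ± 0.265, with the smallest p of the module (edgeR adjusted p = 0.227). The log2 difference was 1.26 among libraries without a hyphen and 0.50 among those with one.

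Oasl2 stood at 9.84, 10.7 and 7.94 CPM in PT-I-PpoI kidneys, against 7.80, 7.80 and 7.87 CPM in wild type kidneys. The third PT-I-PpoI library was only just above the wild type libraries, and the within-form log2 differences were 0.39 without a hyphen and 0.02 with one. Oasl1 averaged 2.60 ± 0.23 CPM in PT-I-PpoI kidneys and 1.96 ± 0.41 CPM in wild type kidneys, and Oas1a averaged 2.06 ± 0.96 CPM in PT-I-PpoI kidneys and 1.91 ± 0.46 CPM in wild type kidneys. Oas1a belongs to a family of close copies, among which reads may be lost. Oas3 did not pass the filter, with 3, 4 and 3 read pairs in PT-I-PpoI libraries against 9, 4 and 2 in wild type libraries. All 4 tested OAS members had a fold change above 0 over all libraries, with a median log2 value of 0.35. Within the name forms, however, Oas1a was slightly below 0, at -0.01 without a hyphen and -0.06 with one.

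ISG15 is a ubiquitin-like protein that is attached to other proteins, and USP18 removes it and also blocks signalling from the type I receptor. Isg15 (chr4:156199424-156200818) was at 4.23, 5.41 and 2.62 CPM in PT-I-PpoI kidneys, against 2.55, 3.03 and 2.24 CPM in wild type kidneys. The first and second PT-I-PpoI libraries were above all wild type libraries, and the third lay within their range. The log2 fold change was 0.67 ± 0.28 (edgeR adjusted p = 0.395). The log2 difference was 0.88 without a hyphen in the name and 0.01 with one. Usp18 measured 3.76, 5.24 and 2.98 CPM in PT-I-PpoI kidneys, against 2.70, 3.71 and 3.29 CPM in wild type kidneys. The groups overlapped, and the sign differed by name form, at 0.70 without a hyphen and -0.22 with one on the log2 scale (edgeR adjusted p = 0.599 over all libraries).

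Among the transcription factors, IRF9 and STAT2 form the complex that binds the ISRE, IRF7 amplifies type I interferon production, and IRF1 acts downstream of interferon gamma. Irf1 measured 27.1, 23.9 and 21.8 CPM in PT-I-PpoI kidneys, against 23.2, 17.7 and 15.5 CPM in wild type kidneys. Its groups overlapped only through the first wild type library (0.37 ± 0.16 on the log2 scale, edgeR adjusted p = 0.404). Irf9 was at 20.3, 27.5 and 19.8 CPM in PT-I-PpoI kidneys, against 16.0, 20.1 and 17.4 CPM in wild type kidneys. The second PT-I-PpoI library was the highest, and the third was below the second wild type library (0.34 ± 0.15, edgeR adjusted p = 0.414). Irf7 averaged 14.9 ± 2.92 CPM in PT-I-PpoI kidneys and 11.9 ± 1.49 CPM in wild type kidneys, a log2 fold change of 0.33. Stat2 averaged 19.9 ± 1.59 CPM in PT-I-PpoI kidneys and 19.9 ± 1.45 CPM in wild type kidneys, and its log2 fold change of 0.00 ± 0.10 was the nearest to 0 of the module.

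The RNA sensors RIG-I (Ddx58) and MDA5 (Ifih1) had fold changes slightly below 0. Ddx58 was at 21.0, 18.9 and 20.6 CPM in PT-I-PpoI kidneys, against 19.7, 22.6 and 18.7 CPM in wild type kidneys. Ifih1 was at 10.4, 8.94 and 10.3 CPM in PT-I-PpoI kidneys, against 11.3, 9.69 and 9.76 CPM in wild type kidneys. In both the groups overlapped throughout, with log2 fold changes of -0.01 ± 0.11 and -0.06 ± 0.13 and edgeR adjusted p-values of 0.985 and 0.873. Both signs turn round when single libraries are left out, and that of Ddx58 also under other scalings.

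The other sensors had fold changes above 0 without passing the test. Eif2ak2, which encodes the RNA-activated kinase PKR that halts translation, measured 13.9, 13.6 and 12.6 CPM in PT-I-PpoI kidneys, against 12.04, 11.2 and 12.3 CPM in wild type kidneys. Its groups did not overlap, although the third library of each lay close together (0.17 ± 0.11 on the log2 scale, edgeR adjusted p = 0.519). Zbp1, a sensor of left-handed nucleic acid that can start necroptosis, was at 1.96, 1.88 and 1.63 CPM in PT-I-PpoI kidneys, against 1.83, 0.984 and 1.10 CPM in wild type kidneys. Its first wild type library stood with the PT-I-PpoI libraries, and the log2 fold change was 0.46 ± 0.29 (edgeR adjusted p = 0.538). Dhx58, which encodes the RIG-I-like regulator LGP2, averaged 2.84 ± 0.91 CPM in PT-I-PpoI kidneys and 2.36 ± 0.80 CPM in wild type kidneys, with log2 differences of 0.81 without a hyphen and -0.28 with one.

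Among the interferon-induced GTPases, Mx2 and Gbp2 were higher in PT-I-PpoI kidneys in both name forms, whereas Mx1, Gbp3 and Gbp7 had opposite signs in the 2 forms. The log2 difference of Gbp3 without a hyphen was only -0.02. Mx2, one of the MX proteins that trap viral components, stood at 1.27, 0.938 and 0.992 CPM in PT-I-PpoI kidneys, against 0.915, 0.757 and 0.647 CPM in wild type kidneys. These groups were narrowly apart (0.46 ± 0.30 on the log2 scale, edgeR adjusted p = 0.545). Mx1 was at 0.423, 0.552 and 0.709 CPM in PT-I-PpoI kidneys, against 1.06, 0.454 and 0.398 CPM in wild type kidneys. Its mean was lower in PT-I-PpoI kidneys only through the first wild type library, without which the log2 fold change of -0.25 became 0.38, and neither value passed the test.

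The guanylate-binding proteins attack membranes around intracellular pathogens. Gbp7 showed the same first wild type library on top, with 5.98, 5.63 and 9.57 CPM in PT-I-PpoI kidneys against 10.5, 7.12 and 4.98 CPM in wild type kidneys. Its log2 difference was -0.84 without a hyphen and 0.67 with one. Gbp3 was at 7.67, 6.68 and 8.22 CPM in PT-I-PpoI kidneys, against 7.27, 6.59 and 5.28 CPM in wild type kidneys, with overlapping groups (0.24 ± 0.16, edgeR adjusted p = 0.568). Gbp2 averaged 13.0 ± 2.07 CPM in PT-I-PpoI kidneys and 11.6 ± 1.96 CPM in wild type kidneys (log2 fold change 0.16, edgeR adjusted p = 0.699).

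All 6 restriction factors and nucleotide or RNA enzymes had a fold change above 0, with a median log2 value of 0.24. Bst2 (chr8:71534262-71537437) encodes tetherin, which holds budding virus at the cell surface. It stood at 14.6, 21.0 and 13.9 CPM in PT-I-PpoI kidneys, against 12.2, 11.6 and 11.8 CPM in wild type kidneys. Every PT-I-PpoI library was above the tight range of wild type, and the second was well above the others (0.48 ± 0.16 on the log2 scale, edgeR adjusted p = 0.338). Cmpk2, a mitochondrial nucleotide kinase, was at 16.2, 18.2 and 14.7 CPM in PT-I-PpoI kidneys, against 13.9, 14.5 and 11.6 CPM in wild type kidneys. Those groups were also apart (0.30 ± 0.13, edgeR adjusted p = 0.410).

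Rsad2, the neighbour of Cmpk2 on chromosome 12 (12.8 kb away, on the opposite strand), encodes viperin, which makes a chain-terminating nucleotide. It averaged 43.6 ± 4.82 CPM in PT-I-PpoI kidneys and 39.4 ± 9.23 CPM in wild type kidneys, and its highest library was wild type replicate 1. Rtp4 averaged 5.29 ± 0.70 CPM in PT-I-PpoI kidneys and 4.42 ± 0.44 CPM in wild type kidneys. Trim30a averaged 5.81 ± 1.24 CPM in PT-I-PpoI kidneys and 4.95 ± 1.02 CPM in wild type kidneys. Isg20, an RNA exonuclease, averaged 2.005 ± 0.721 CPM in PT-I-PpoI kidneys and 1.83 ± 0.70 CPM in wild type kidneys, with the second PT-I-PpoI library and the third wild type library standing above the rest. None of these 4 passed the test.

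The PARP and DTX3L group was the one role group with a median log2 fold change below 0, at -0.17. DTX3L is a ubiquitin ligase that works bound to PARP9, and the pair is known to act at DNA breaks as well as in interferon signalling. Dtx3l (chr16:35926515-35939027) was at 8.04, 8.39 and 9.43 CPM in PT-I-PpoI kidneys, against 9.78, 10.1 and 10.5 CPM in wild type kidneys. Every PT-I-PpoI library was below every wild type library (-0.23 ± 0.12 on the log2 scale, edgeR adjusted p = 0.456). Parp9 (chr16:35938470-35972621) was at 20.3, 18.1 and 18.9 CPM in PT-I-PpoI kidneys, against 24.0, 21.3 and 19.0 CPM in wild type kidneys. Its groups overlapped through the third wild type library (-0.17 ± 0.11, edgeR adjusted p = 0.559).

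Dtx3l and Parp9 overlap in their exons on opposite strands, and counting set no strand option, so reads of the shared stretch cannot be told apart. Parp14, an ADP-ribosyltransferase 55.1 kb from Dtx3l, had a fold change above 0. It stood at 14.7, 16.3 and 15.02 CPM in PT-I-PpoI kidneys, against 12.8, 13.7 and 12.2 CPM in wild type kidneys, with no overlap (0.26 ± 0.10, edgeR adjusted p = 0.395). Its within-form log2 differences of 0.28 and 0.21 were close to each other.

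Of the remaining members, Ifi27 (chr12:103434189-103440245), a small mitochondrial protein gene, had the highest level per length of the module. It was at 45.6, 56.9 and 35.6 CPM in PT-I-PpoI kidneys, against 38.4, 30.6 and 31.4 CPM in wild type kidneys. The first and second PT-I-PpoI libraries were above all wild type libraries, and the third was below wild type replicate 1 (0.46 ± 0.17 on the log2 scale, edgeR adjusted p = 0.352). Without PT-I-PpoI replicate 3, Ifi27 was the 1 member called higher (log2 fold change 0.61, edgeR adjusted p = 0.0430). That fit called 1.84% of all genes higher and 2.56% lower. No PT-I-PpoI library left in it has a hyphen, so group and name form are partly mixed. The log2 difference of Ifi27 between libraries with and without a hyphen was -0.42. When all 6 libraries were fitted and name form was included, Ifi27 was not called (0.31 ± 0.11, edgeR adjusted p = 0.273). Its exons overlap those of Ifi27l2a on the opposite strand.

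Ifi35, whose protein partners NMI, was at 20.5, 19.5 and 17.58 CPM in PT-I-PpoI kidneys, against 16.2, 17.57 and 15.8 CPM in wild type kidneys. Its groups were apart by the second decimal only (0.22 ± 0.10, edgeR adjusted p = 0.431). Xaf1, which promotes apoptosis, averaged 5.49 ± 0.30 CPM in PT-I-PpoI kidneys and 4.29 ± 1.29 CPM in wild type kidneys. Ifi44 averaged 14.2 ± 1.27 CPM in PT-I-PpoI kidneys and 13.6 ± 1.73 CPM in wild type kidneys. Neither Xaf1 nor Ifi44 passed the test.

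**Figure D3:**
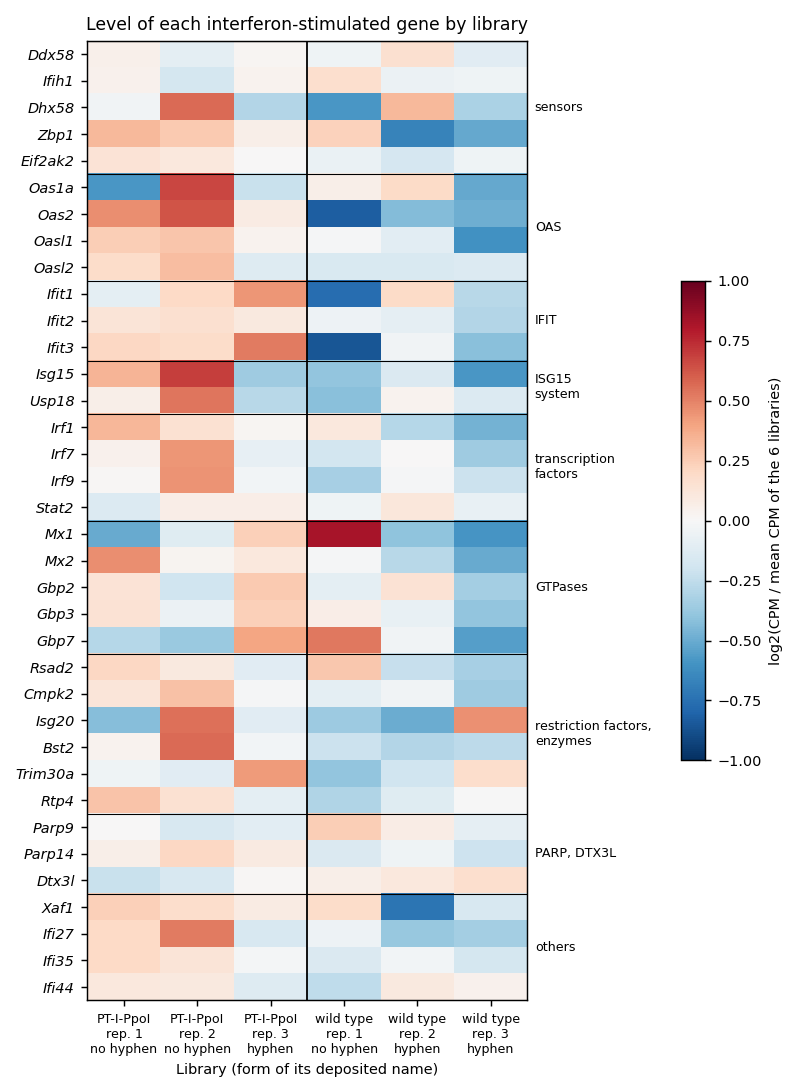
Level of each of the 36 tested members in each library, as log2 of its CPM over its mean CPM in the 6 libraries, with members in rows by role and libraries in columns, the 3 PT-I-PpoI libraries on the left. PT-I-PpoI replicate 2 is highest for 15 members and wild type replicate 3 lowest for 15, and Mx1 and Gbp7 are highest in wild type replicate 1.

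The members did not follow 1 common pattern over the libraries. PT-I-PpoI replicate 2 was the highest of the 6 libraries for 15 members, among them Oas2, Oasl1, Oasl2, Isg15, Usp18, Irf7, Irf9, Bst2 and Ifi27. PT-I-PpoI replicate 1 was highest for 8 members, and PT-I-PpoI replicate 3 for 5: Ifit1, Ifit3, Gbp2, Gbp3 and Trim30a. Wild type replicate 1 was highest for 5 members, replicate 2 for 2 and replicate 3 for 1. The lowest library was wild type replicate 3 for 15 members, wild type replicate 1 for 9 and wild type replicate 2 for 7. PT-I-PpoI replicates 1, 2 and 3 were lowest for 3, 2 and 0 members.

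The size of the difference also varied with the form of the library name. The median log2 difference between groups was 0.27 over the 2 PT-I-PpoI and 1 wild type libraries without a hyphen, and 0.18 over the 1 PT-I-PpoI and 2 wild type libraries with one. In each form 28 of the 36 tested members were above 0. Both differences were above 0 in 23 members (63.9%, against 26.1% of all genes) and both below 0 in 3, Oas1a, Parp9 and Dtx3l (8.33%, against 26.4%). The other 10 members had opposite signs. When the name form entered the fit, the median log2 fold change of the members was 0.24, and 6 members were higher at an unadjusted p under 0.05 (6.24% of all genes) and 0 lower (6.32%).

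**Figure D4:**
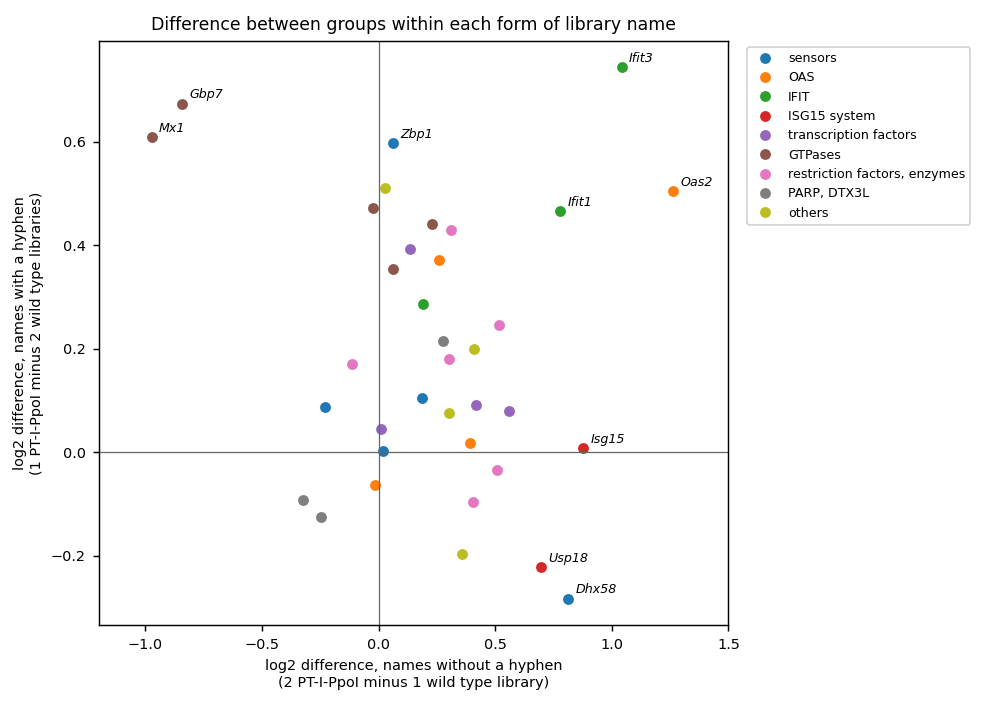
Log2 difference between PT-I-PpoI and wild type for each tested member among libraries without a hyphen in the name (horizontal axis, 2 PT-I-PpoI and 1 wild type) and among those with one (vertical axis, 1 PT-I-PpoI and 2 wild type), coloured by role. Of the 36 points, 23 lie above 0 on both axes, with Ifit3 and Oas2 farthest out, while Mx1 and Gbp7 lie at the upper left and Dhx58 and Usp18 at the lower right.

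Between the name forms themselves, the share of members that differed was close to that of all genes. Over both groups, at an unadjusted p under 0.05 by edgeR, libraries with a hyphen were higher than those without in 3 members (8.33%, against 9.82% of all genes): Ifit1 by 0.53, Ifit3 by 0.47 and Trim30a by 0.46 on the log2 scale. They were lower in 3 members (8.33%, against 9.01%): Irf1 by -0.36, Rsad2 by -0.41 and Ifi27 by -0.42. Over the whole module the median of this difference was -0.09.

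Per kilobase of exon, the members spanned a wide range of levels. Ifi27 had the highest mean, 43.7 CPM per kb in PT-I-PpoI kidneys and 31.8 CPM per kb in wild type kidneys, followed by Bst2 with 21.5 and 15.5, Ifi35 with 14.1 and 12.2, and Rsad2 with 11.5 and 10.4. Every library of Ifi27 was above every library of Bst2, and every library of Bst2 above every library of Ifi35, whereas Ifi35 and Rsad2 overlapped. The lowest were Oas3 with 0.0418 CPM per kb in PT-I-PpoI kidneys and 0.0591 in wild type kidneys, Mx1 with 0.189 and 0.214, Mx2 with 0.440 and 0.319, and Oas2 with 0.528 and 0.267. The mean level of 31 of the 37 members (83.8%) was under the median of the genes tested.

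**Figure D5:**
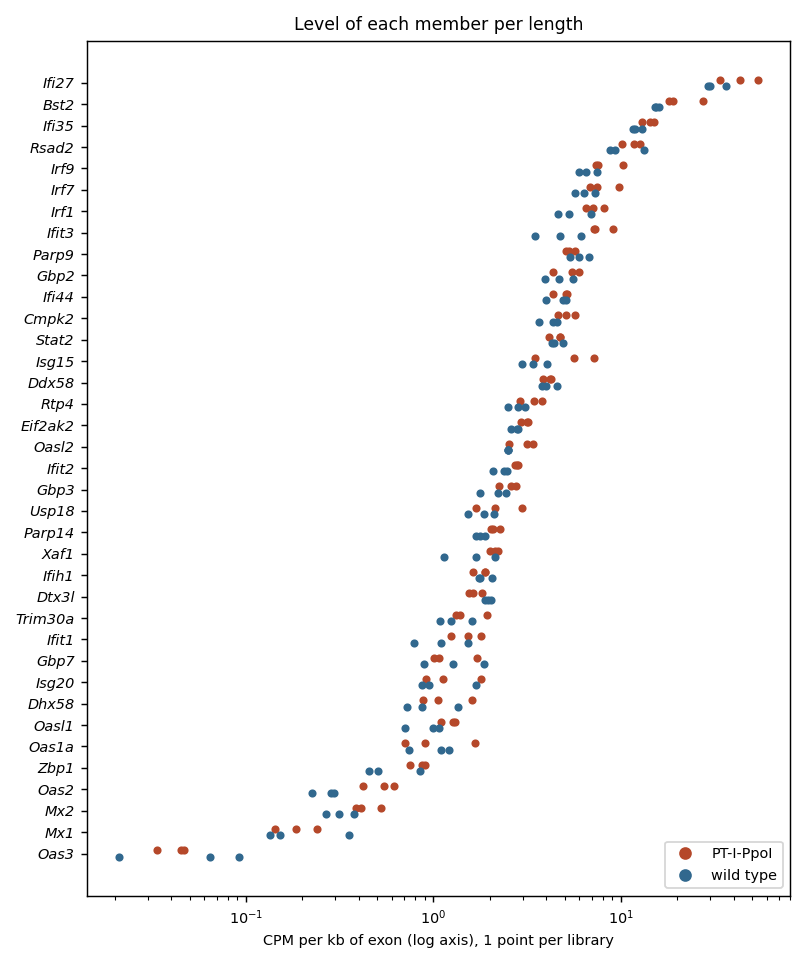
Level of all 37 members in CPM per kb of exon on a log axis, 1 point per library, with PT-I-PpoI points drawn just above wild type points and members ordered by mean level. Ifi27 is at the top and Oas3 at the bottom, and in most members the 2 colours overlap.

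Genes of the same pathway outside the module had a median fold change closer to 0. Of 93 further genes for ligands, receptors, signalling, inhibitors, induction and other interferon-stimulated genes, 81 were tested. Of these, 49 had a fold change above 0 and 32 below, with a median log2 value of 0.07, and edgeR called 0 either way. At an unadjusted p under 0.05, 6 were higher (7.41%, close to the 6.42% of all genes) and 0 lower (against 5.61%). DESeq2 called 1, Ifitm1. Among 10 interferon genes, 9, among them Ifnb1, had 0 read pairs in every library, where 3 read pairs would correspond to 0.159 to 0.212 CPM in PT-I-PpoI libraries and 0.144 to 0.227 CPM in wild type libraries. Ifng had 8, 0 and 0 read pairs in PT-I-PpoI libraries, against 1, 0 and 0 in wild type libraries. These limits cover counting error only, and reads that map to several places were not counted. Transcripts of the 9 were thus not detectable at this depth and with this way of counting.

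Over the 6 receptor genes the log2 fold change had a median of 0.07, and none reached an unadjusted p under 0.05. Ifngr2, a chain of the interferon gamma receptor, had the smallest p of them, with 29.9 ± 2.27 CPM in PT-I-PpoI kidneys and 33.3 ± 2.39 CPM in wild type kidneys (edgeR adjusted p = 0.517). The 8 signalling genes had a median of -0.02. Irf5, with the smallest p of them, averaged 12.4 ± 1.96 CPM in PT-I-PpoI kidneys and 15.2 ± 2.39 CPM in wild type kidneys (edgeR adjusted p = 0.474). The 9 inhibitors had a median of 0.05, and Adar, whose enzyme edits double-stranded RNA, had the smallest p (0.16 ± 0.09, edgeR adjusted p = 0.470). Adar overlaps Chrnb2 in its exons on the opposite strand.

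Of the 9 tested genes of interferon induction, Mb21d1, the gene of the DNA sensor cGAS, had the smallest p. It was at 1.01, 0.717 and 0.992 CPM in PT-I-PpoI kidneys, against 0.385, 0.379 and 0.448 CPM in wild type kidneys. The groups did not overlap, on 19, 13 and 14 read pairs in PT-I-PpoI libraries against 8, 5 and 9 in wild type libraries (1.14 ± 0.34 on the log2 scale, edgeR adjusted p = 0.274). The median of the induction genes was -0.03.

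Outside the module, 49 interferon-stimulated genes were tested, of which 34 were above 0 and 15 below (median log2 fold change 0.09), and 5 were higher at an unadjusted p under 0.05 (10.2%, against 6.42% of all genes) and 0 lower (against 5.61%). The 5 were the membrane-acting virus entry inhibitors Ifitm1, Ifitm2 and Ifitm3, and Ifit3b and Parp12, of which Parp12 averaged 21.6 ± 1.95 CPM in PT-I-PpoI kidneys and 17.9 ± 1.69 CPM in wild type kidneys. Ifitm1 was at 8.36, 10.1 and 5.46 CPM in PT-I-PpoI kidneys, against 3.61, 5.22 and 3.44 CPM in wild type kidneys. Its groups did not overlap (0.99 ± 0.25 on the log2 scale), and the adjusted p was 0.218 by edgeR and 0.0410 by DESeq2. Ifitm2 was at 93.0, 96.3 and 76.5 CPM in PT-I-PpoI kidneys, against 68.6, 68.2 and 70.3 CPM in wild type kidneys. Ifitm3 was at 41.9, 47.5 and 29.4 CPM in PT-I-PpoI kidneys, against 30.7, 26.7 and 22.6 CPM in wild type kidneys, and overlapped through the third PT-I-PpoI library. Without PT-I-PpoI replicate 3, edgeR called all 3 Ifitm genes higher, with adjusted p-values of 0.0274 for Ifitm1, 0.0200 for Ifitm2 and 0.0274 for Ifitm3. Group and name form are partly mixed in that fit. When all 6 libraries were fitted and name form was included, none of the 3 was called. Their edgeR adjusted p-values were then 0.209 for Ifitm1, 0.185 for Ifitm2 and 0.166 for Ifitm3.

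Markers of kidney cell types were measured beside the module, and their part in the values above was not tested. At the same threshold where no member was called, 3 markers were called higher in PT-I-PpoI kidneys by edgeR, and none of the markers was at 0 in any library. Ptger3, a prostaglandin receptor of the thick ascending limb, averaged 59.1 ± 2.05 CPM in PT-I-PpoI kidneys and 30.2 ± 4.003 CPM in wild type kidneys (log2 fold change 0.97 ± 0.10, edgeR adjusted p = 0.0356). Avpr2, the vasopressin receptor of the collecting duct, averaged 36.7 ± 2.34 CPM in PT-I-PpoI kidneys and 20.1 ± 2.47 CPM in wild type kidneys (0.86 ± 0.11, edgeR adjusted p = 0.0385). Aqp4, a water channel on the inner medulla list, averaged 29.1 ± 3.29 CPM in PT-I-PpoI kidneys and 15.96 ± 1.64 CPM in wild type kidneys (0.87 ± 0.12, edgeR adjusted p = 0.0496). When each library was left out in turn, Ptger3 passed in 2 cases, without PT-I-PpoI replicate 3 and without wild type replicate 2, and Avpr2 and Aqp4 passed only without PT-I-PpoI replicate 3. Aqp4 also did not pass under either other scaling in edgeR, under the CPM filter or by limma.

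By list, thick ascending limb markers were above 0 in 4 of 4, all 4 at an unadjusted p under 0.05, with sums of 5559 to 5682 CPM in PT-I-PpoI libraries and 3795 to 4218 CPM in wild type libraries. Collecting duct markers were above 0 in 5 of 5, 3 of them at that threshold (449 to 602 CPM in PT-I-PpoI libraries, 327 to 365 CPM in wild type libraries). Inner medulla markers were above 0 in 3 of 3, 2 of them at that threshold (113.6 to 135.8 CPM in PT-I-PpoI libraries, 26.0 to 48.8 CPM in wild type libraries). Slc14a2 made up most of the PT-I-PpoI sums, at 103, 84.1 and 83.8 CPM. In wild type libraries it was at 6.07, 28.6 and 20.8 CPM (edgeR adjusted p = 0.105). S100a4 averaged only 3.75 CPM in PT-I-PpoI libraries and 3.01 CPM in wild type libraries. Endothelial markers were above 0 in 6 of 6, 3 of them at that threshold (564 to 596 CPM in PT-I-PpoI libraries, 477 to 530 CPM in wild type libraries). In each of these 4 lists the PT-I-PpoI sums were all above the wild type sums. Abundant genes weighed most in such sums. In PT-I-PpoI libraries Umod was at 4479.5 to 4547.2 CPM in the thick ascending limb list, and Plvap at 263 to 292 CPM in the endothelial list. Among the endothelial markers, Plvap and Emcn were apart between the groups, with PT-I-PpoI higher, as were 9.23% of all genes, whereas Pecam1, Cdh5, Kdr and Tek overlapped.

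Markers of the proximal tubule, the segment in which I-PpoI is expressed, were below 0 in 8 of 8, 3 of them at that threshold (5.61% of all genes were lower). Their sums overlapped, at 7593 to 11395 CPM in PT-I-PpoI libraries and 10128 to 13694 CPM in wild type libraries. Slc7a13, with the smallest p of that list, averaged 503 ± 73.5 CPM in PT-I-PpoI kidneys and 699.97 ± 89.0 CPM in wild type kidneys, and its adjusted p was 0.258 by edgeR and 0.0454 by DESeq2. Slc34a1, the phosphate transporter of the segment, averaged 4882 ± 1467 CPM in PT-I-PpoI kidneys and 6799 ± 1299 CPM in wild type kidneys (edgeR adjusted p = 0.436).

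The remaining lists overlapped between the groups in their sums. Leukocyte markers summed to 33.5 to 40.1 CPM in PT-I-PpoI libraries and 33.9 to 43.8 CPM in wild type libraries, with 2 of 10 tested above 0 and 0 at an unadjusted p under 0.05. Macrophage markers summed to 133.7 to 144.4 CPM in PT-I-PpoI libraries and 118.0 to 147.4 CPM in wild type libraries, with 4 of 7 above 0 and 1 at that threshold. Podocyte markers were above 0 in 2 of 2, with sums of 88.4 to 116.9 CPM in PT-I-PpoI libraries and 75.6 to 103.3 CPM in wild type libraries. Distal convoluted tubule markers were below 0 in 3 of 3, with sums of 759.5 to 979 CPM in PT-I-PpoI libraries and 779 to 1021 CPM in wild type libraries. At that threshold 1 of them, Pvalb, was lower (against 5.61% of all genes). It averaged 18.9 ± 3.19 CPM in PT-I-PpoI kidneys and 25.3 ± 2.61 CPM in wild type kidneys, without overlap (edgeR adjusted p = 0.318). In this direction 7.74% of all genes did not overlap.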

How the data were processed

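RNA from kidney cortex of PT-I-PpoI and wild type mice was made into stranded mRNA libraries and read as pairs, per the labels' protocols. The authors deposited a table of counts of read pairs per gene, made with HISAT2 and featureCounts 1.5.2, per the labels' protocols and the file headers. The counting command set no strand option and no option for reads mapping to several places. The header names mm10, whereas the labels name mm9. The positions of 37 of 37 members overlapped those in GRCm38.p6 (mm10), so coordinates are mm10. The authors also deposited regularized log2 values (rlog) for 17918 genes, used only for an alternative test. The submitters' processing notes name DESeq2.

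The deposited counts were tested with edgeR 4.0.16 in R 4.3.3: expression filter (minimum count 10, minimum total 15), TMM factors, and the quasi-likelihood test, two-sided, on all 6 libraries, with Benjamini-Hochberg adjustment over the 13977 genes that passed (threshold 0.05). CPM are counts scaled to TMM-adjusted library totals; log2 fold changes give PT-I-PpoI over wild type. Differences within a name form are differences of mean log2 CPM with a prior count of 2. Alternatives were DESeq2 1.42.0 size factors and test, upper-quartile factors, no filter, at least 1 CPM in 3 libraries, limma 3.58.1 (voom, and on the rlog values), a replicate block, the library name form as a term, and each library left out. The fits were tested on simulated data.

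The members and all lists were chosen with earlier results of these data known. Every member is named. Values in every library are given for the pair with the smallest p in each role group, for members with an unadjusted p under 0.05, for those called in any alternative, and for those with a fold change below 0; pathway genes outside the module are named for the smallest p in their list or a call in any fit. Outside this rule, Ifng, Ifnb1, Ifit3b, Parp12 and the cell type markers were named after their values were seen. Sequences are RefSeq's. Promoters of Dhx58, Zbp1, Oas2, Usp18, Mx1, Mx2, Rtp4, Parp9, Parp14 and Ifi27 were not used here.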

Additional observations from a re-analysis of the deposited data

How the results depend on the processing

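The number of genes called across the whole table, 19, became 187 by DESeq2, 64 with the library name form as a term, 47 without the filter on low counts and 40 with the replicate block, and ranged between 0 and 625 when each library was left out. The number of members called, 0, became 1 when the name form was a term and was 0 to 1 when each library was left out. The number of pathway genes outside the module called, 0, became 1 by DESeq2 and was 0 to 3 when each library was left out. The median log2 fold change of the members, 0.27, was 0.074 on the rlog scale, which shrinks differences of low counts, 0.18 among libraries with a hyphen, and 0.21 to 0.30 when each library was left out. The replicate numbers are shared between the groups, but the correlations of same-numbered samples' deviations were 0.219, -0.128 and 0.163, and only PT-I-PpoI replicate 1 correlated best with its own number, so the block (0 members called) is not a pairing.

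Signs reversed in 8 members, all with a reported log2 fold change between -0.25 and 0.12 and none past a threshold; the cause was not tested. Ddx58 was 0.011 when the name form was a term, 0.0058 by limma-voom and 0.013 with upper-quartile factors. Stat2 was -0.00089 by DESeq2, -0.00091 with DESeq2's size factors in edgeR, -0.0013 on the rlog scale and -0.00064 with the replicate block. With each library left out, the range was -0.065 to 0.070 for Ddx58, -0.38 to 0.23 for Gbp7, -0.038 to 0.14 for Ifi44, -0.096 to 0.021 for Ifih1, -0.22 to 0.48 for Isg20, -0.52 to 0.38 for Mx1, -0.34 to 0.37 for Oas1a and -0.036 to 0.067 for Stat2. Members with under 25 read pairs in most libraries, such as Mx1 and Oas3, are limited by depth.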

Other observations

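Among the 14 tested members with an ISRE match in their promoter, 11 had a fold change above 0 and the median on the log2 scale was 0.17. Among the 12 with a promoter but no match, 11 were above 0 and the median was 0.29. For the GAS, the median was 0.20 in the 8 tested members with a match and 0.26 in the 18 without. Neighbouring members did not always go together: in the gene cluster on chromosome 3, where Gbp7 and Gbp3 lie 9.9 kb apart and Gbp3 and Gbp2 47.5 kb apart, Gbp7 had a log2 fold change of -0.11, Gbp3 of 0.24 and Gbp2 of 0.16. On chromosome 16, Mx1 at -0.25 and Mx2 at 0.46 lie 73.2 kb apart on opposite strands. In the cluster on chromosome 19, Ifit2, Ifit3 and Ifit1 were at 0.27, 0.72 and 0.44. None of these contrasts was tested.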
